A study of Mus musculus with 12 samples.

Results

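TRBV10 is 1 of the 22 TRBV segment names, a combined name among them, in T cell receptor (TCR) libraries from mouse tumours. The receptors that use TRBV10 are described here. The members are every TRB (beta) chain annotated with TRBV10, which gave 922 chains on 914 of the 22768 cell barcodes with a TRB chain. Of these, 764 cells were usable: 92 chains lay on barcodes with 2 or more TRB chains, treated as candidate doublets, and 66 had no TRA (alpha) chain. The 764 cells made 480 of the 10624 clonotypes over all libraries. A clonotype is a set of cells of 1 library that agree in the V and J segments and the CDR3 bases of their TRB chain and have a TRA chain in common. TRBV10 was chosen by measured values of these libraries, namely the sharing of its CDR3 loops between libraries, its alpha partners, TRAJ27 among them, and its clone sizes. TRAJ27, the sharing and the clone sizes are therefore described with no test printed. Tests of the other alpha partners are printed but are not independent of that choice, so nothing is read from their calls.

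The tumours grew from 300000 cells of MC38, a mouse colon carcinoma line, placed under the skin of C57BL/6J mice aged 6 to 8 weeks. The MC38 derivative was the same in all groups: a p53 knockout carrying a p53 substitution that the labels write in conflicting notations. On day 10, at tumour volumes of about 50 to 100 mm³, each tumour was injected once with 40 µg of LNP-P20-mAb or, as the control, LNP-Ctrl. Leukocytes were then sorted by their surface marker CD45, and about 10000 per sample went into droplet-based 5′ libraries with TCR enrichment. There were 3 TCR libraries per treatment, and the 6 samples of gene expression were not used. The stated aim was to compare NK and T cells between treated tumours. Whether the 3 libraries of a treatment came from different animals is not in the labels, and the p-values below reflect only how far these libraries spread, which may be technical.

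A beta chain is assembled in the thymus by joining a V, a D and a J segment, and an alpha chain by joining a V and a J segment. The V segment encodes the loops CDR1 and CDR2, which mostly face the MHC molecule, while CDR3 spans the joint and mostly faces the bound peptide. Enzymes trim the segment ends and add untemplated bases at the joint, so that 2 cells with the same CDR3 bases and the same alpha chain usually descend from 1 cell. Receptors whose joint needs few added bases are made often and recur in different animals.

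The TRBV10 call was checked for consistency on the loops of the chains, which cannot establish identity without a germline sequence to compare. All 922 chains carried 1 and the same CDR1 and CDR2, and no other TRBV segment in these libraries had that CDR1. Their bases follow, all in lower case because no base differed between chains.
TRBV10 CDR1: ctgggccacgatact
TRBV10 CDR2: tacaataataagcaactc
The RefSeq table for GRCm38.p6 lists Trbv10 as a V segment pseudogene, as it does 13 of its 35 Trbv entries, and 2 of those 13 had clonotypes here, Trbv10 and Trbv29. The deposited chains were marked productive, so that the table's class and the chains differ.

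The CDR3 sequences below carry the main findings. The first 9 are base versions, 3 of each, of the beta loops found in 3 or more libraries. They have 15 residues, use TRBJ2-3 and, once translated, differ only at residue 5, by which they are called the glycine, serine and tyrosine loops. The tenth is the most frequent alpha loop joined to TRAJ27, and the rest are the beta loops of the clonotypes of 10 or more cells. In the beta loops, capitals mark the bases that match neither the usual V end nor the usual J end among these chains.
Glycine loop, in LNP-Ctrl 2 and LNP-P20-mAb 1 and 2: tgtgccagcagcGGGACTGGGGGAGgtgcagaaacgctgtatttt
Glycine loop, in LNP-P20-mAb 1 and 2: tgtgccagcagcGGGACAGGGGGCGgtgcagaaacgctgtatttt
Glycine loop, in LNP-P20-mAb 3: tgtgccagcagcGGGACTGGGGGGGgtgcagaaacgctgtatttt
Serine loop, in LNP-Ctrl 1: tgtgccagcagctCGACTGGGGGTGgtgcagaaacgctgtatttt
Serine loop, in LNP-Ctrl 2: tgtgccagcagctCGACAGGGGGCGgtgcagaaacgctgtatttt
Serine loop, in LNP-Ctrl 3 and LNP-P20-mAb 1 and 2: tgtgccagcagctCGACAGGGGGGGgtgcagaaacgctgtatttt
Tyrosine loop, in LNP-Ctrl 2: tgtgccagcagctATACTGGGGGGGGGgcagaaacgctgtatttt
Tyrosine loop, in LNP-Ctrl 3: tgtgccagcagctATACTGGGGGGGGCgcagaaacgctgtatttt
Tyrosine loop, in LNP-P20-mAb 3: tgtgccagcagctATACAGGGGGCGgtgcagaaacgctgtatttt
Alpha loop of TRAV9-2 and TRAJ27, in LNP-Ctrl 2 and LNP-P20-mAb 1, 2 and 3: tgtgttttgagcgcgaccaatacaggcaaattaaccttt
Beta loop with TRBJ2-4, partners TRAV7-3 and TRAJ24, in LNP-Ctrl 1: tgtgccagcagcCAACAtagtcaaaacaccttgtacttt
Beta loop with TRBJ2-4, partners TRAV6-7-DV9 and TRAJ50, in LNP-P20-mAb 1 and 2: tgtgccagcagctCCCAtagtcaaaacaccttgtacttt
Beta loop with TRBJ2-4, partners TRAV3N-3 and TRAJ11, in LNP-P20-mAb 1 and 2: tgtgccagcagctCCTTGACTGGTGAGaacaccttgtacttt
Beta loop with TRBJ2-1, partners TRAV3N-3 and TRAJ26, in LNP-Ctrl 2: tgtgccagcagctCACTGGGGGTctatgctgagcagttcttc
Beta loop with TRBJ1-4, partners TRAV9-2 and TRAJ27, in LNP-P20-mAb 3: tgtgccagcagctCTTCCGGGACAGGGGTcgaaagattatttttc
Beta loop with TRBJ2-3, partners TRAV4N-3 and TRAJ39, in LNP-P20-mAb 3: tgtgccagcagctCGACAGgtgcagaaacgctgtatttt
The alpha loop with TRAJ27 is printed in lower case throughout, and nothing is read from this about which of its bases were added at the joint.

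Libraries held 2016 to 3923 usable cells and 400 to 3416 clonotypes, supported by 85835 to 145847 unique molecular identifiers (UMIs, which count RNA molecules). The median TRBV10 cell had 13 to 19 TRB UMIs. LNP-P20-mAb 1 and 2 stood apart: 7 TRBV10 clonotypes, identical in the bases of both chains, were in both. They made up 60 of the 90 TRBV10 cells (66.7%) of LNP-P20-mAb 1 and 29 of the 47 (61.7%) of LNP-P20-mAb 2. The other 14 pairs of libraries shared 0 TRBV10 clonotypes. Pairs of libraries had 11 to 29 cell barcodes in common, and none of those was a TRBV10 barcode with the same TRB chain in both. Results between treatments are therefore also given with LNP-P20-mAb 1 and 2 pooled as 1 sample where that matters.

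The TRBV10 share of clonotypes lay higher in each LNP-P20-mAb library than in any LNP-Ctrl library, a difference that did not pass the test, while its share of cells lay lower on average. Its share of clonotypes was 3.72%, 4.33% and 4.39% in LNP-Ctrl 1 to 3 and 5.87%, 6.00% and 5.32% in LNP-P20-mAb 1 to 3. The groups did not overlap. The means were 4.15% ± 0.371 and 5.73% ± 0.363 (SD, n = 3 each), and the exact permutation test, two-sided over 20 assignments, gave p = 0.1, the smallest it can give (0.4 adjusted over 6 measures). In edgeR's quasi-likelihood test, run over 151 V and J segments, the log2 change of TRBV10 was 0.43 ± 0.16 (SE), with a Benjamini-Hochberg adjusted p of 0.151 against a threshold of 0.05. TRBV10 was not among the 4.64% of segments called in that comparison. With LNP-P20-mAb 1 and 2, which share clonotypes, pooled as 1 sample, the log2 change was 0.42 ± 0.17 (SE; edgeR adjusted p = 0.221).

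Counted by cells, the direction was the opposite. TRBV10 took 4.56%, 4.79% and 4.23% of cells in LNP-Ctrl 1 to 3, and 2.76%, 2.33% and 4.54% in LNP-P20-mAb 1 to 3. LNP-P20-mAb 3 lay within the LNP-Ctrl range, so the groups overlapped. The means were 4.53% ± 0.284 and 3.21% ± 1.17 (SD, n = 3 each; exact permutation p = 0.2, 0.4 adjusted). Beside this, the share of cells with other TRBV segments that lay in clonotypes of 2 or more cells was 50.1%, 25.5% and 11.9% in LNP-Ctrl 1 to 3, and 86.4%, 85.4% and 58.7% in LNP-P20-mAb 1 to 3. The part of that expansion in the TRBV10 share of cells was not tested.

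**Figure D1:**
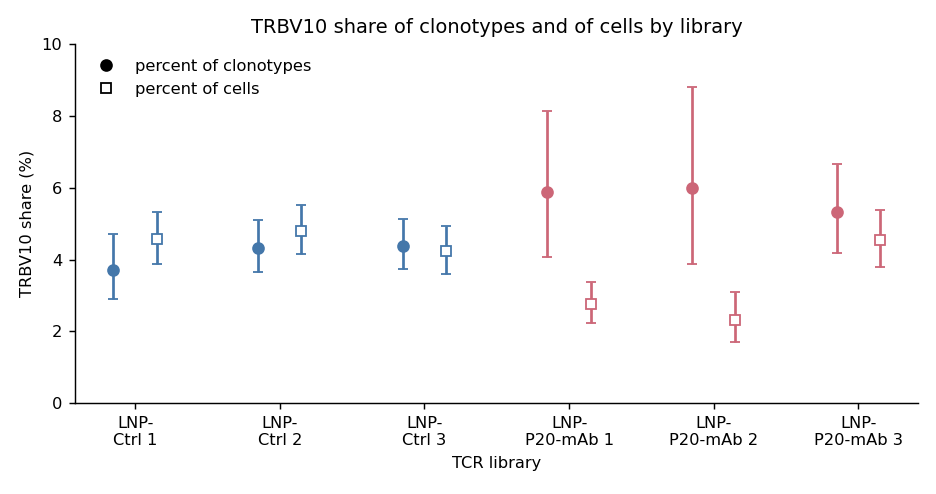
TRBV10 share (%) of clonotypes (filled circles) and of cells (open squares) in each TCR library, LNP-Ctrl in blue and LNP-P20-mAb in red, with 95% exact Clopper-Pearson intervals that cover counting error only. The share of clonotypes is at most 4.39% in LNP-Ctrl and at least 5.32% in LNP-P20-mAb, while the share of cells is lowest in LNP-P20-mAb 1 and 2.

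In order of mean share of clonotypes over the 6 libraries, TRBV10 was 10th of 22 TRBV segment names, at 4.94% ± 0.926 (SD). Its neighbours were TRBV29 at 4.99% ± 1.04 and TRBV16 at 4.74% ± 1.07, and these 3 do not differ beyond their spread. By share of cells it was 14th, at 3.87% ± 1.05. The segments whose share of clonotypes was most like that of TRBV10 over the 6 libraries, by Pearson's r, were TRBV13-1 (0.97), TRBV12-2 (0.89) and TRBV13-3 (0.76). Spearman's rho was 0.943 for TRBV13-1 and 0.771 for the other two. Those shares come from the same libraries and add to a fixed total. The combined name TRBV12-2+TRBV13-2 was counted apart from TRBV12-2 and TRBV13-2, so the share of TRBV12-2 is uncertain.

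TRBJ segments were not joined to TRBV10 as they were to other TRBV segments. The mouse TRBJ segments lie in the clusters TRBJ1 and TRBJ2, each behind its own D segment. TRBJ2-3 was higher in TRBV10 clonotypes: its share was 16.4%, 14.9% and 17.3% in LNP-Ctrl 1 to 3 and 18.2%, 25.0% and 22.2% in LNP-P20-mAb 1 to 3. In clonotypes with other TRBV segments it lay between 7.10% and 9.64%, so the ranges did not overlap, and TRBV10 was higher in 6 of 6 libraries. The means were 19.0% ± 3.82 and 8.40% ± 0.876 (SD, n = 6), a log2 difference of 1.07 ± 0.19 (SE; edgeR adjusted p = 1.47e-06). Pooling LNP-P20-mAb 1 and 2 as 1 sample gave 1.04 ± 0.20 (edgeR adjusted p = 3.46e-05). With the clonotypes that use TRAJ27 left out, a step chosen after seeing the data, the log2 difference was 0.75 ± 0.19 (edgeR adjusted p = 0.00771). DESeq2 gave 0.80 for all clonotypes and did not call it (adjusted p = 0.168). These tests are not independent of how TRBV10 was chosen. TRBJ2-3 was the J segment of 6 of the 11 receptors shared between samples and of 21 of the 37 TRAJ27 clonotypes. The shares of TRBJ2-3 are therefore a description, and nothing is read from its call.

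TRBJ1-3 was lower in TRBV10 clonotypes. It was found in 0 of 67, 2 of 134 and 4 of 150 TRBV10 clonotypes of LNP-Ctrl 1 to 3 and in 0 of 33, 0 of 24 and 0 of 72 of LNP-P20-mAb 1 to 3. The libraries without it allow, at 3 counts, shares of up to 4.48%, 9.09%, 12.5% and 4.17%. Other clonotypes had it at 4.21% to 6.65%, above the TRBV10 share in 6 of 6 libraries, with a log2 difference of -2.01 ± 0.49 (SE; edgeR adjusted p = 0.00139). Pooling LNP-P20-mAb 1 and 2 as 1 sample gave -1.99 ± 0.51 (edgeR adjusted p = 0.00387). TRBJ2-7 (101 clonotypes, 21.0%) and TRBJ2-1 (60 clonotypes, 12.5%) were the other frequent partners. Their log2 differences from other clonotypes, 0.07 ± 0.14 and 0.01 ± 0.18, did not pass the test (edgeR adjusted p = 0.916 and 0.996), and both turn negative with TMM scaling (-0.27 and -0.28), which shifted the median of all partner segments by -0.22.

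**Figure D2:**
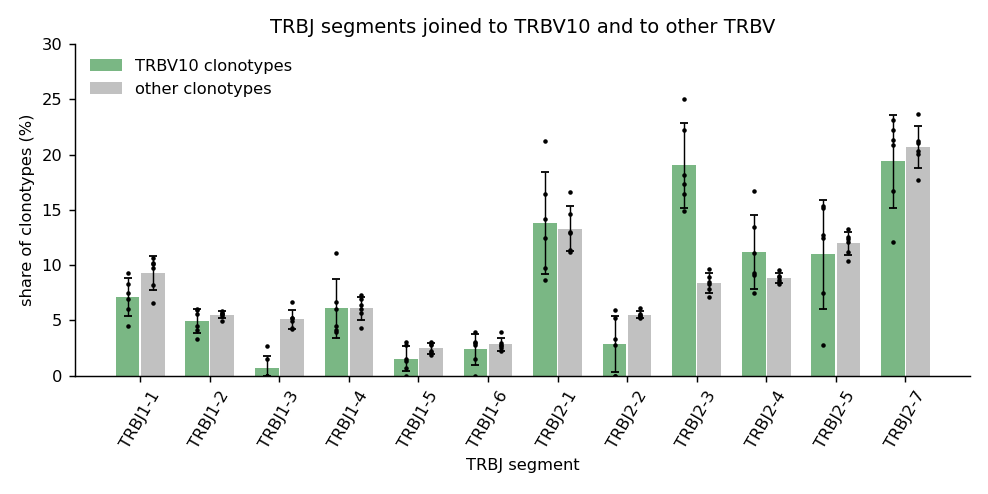
Share of clonotypes (%) by TRBJ segment, for TRBV10 (green) and for all other TRBV segments (grey). Bars are means over 6 libraries, error bars are SD and dots are libraries. TRBJ2-3 stands at 19.0% with TRBV10 against 8.40% with other segments, and TRBJ1-3 at 0.693% against 5.09%.

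Across the TRBJ, TRAV and TRAJ partners, 3 segments were higher and 1 was lower in TRBV10 clonotypes out of 128 tested, TRAJ27 not counted (3.12%). The other 2 calls were alpha segments, TRAV9-2 and TRAJ22, and tests of alpha partners are not independent of how TRBV10 was chosen. TRAV9-2 was found in 28 TRBV10 clonotypes, with shares of 4.48%, 5.97% and 0.667% in LNP-Ctrl 1 to 3 and 6.06%, 16.7% and 13.9% in LNP-P20-mAb 1 to 3. Its share among other clonotypes lay between 1.35% and 2.13%. TRBV10 was higher in 5 of 6 libraries, LNP-Ctrl 3 being the exception. Of the 28 clonotypes, 16 used TRAJ27, so the call over all clonotypes draws on that pairing and nothing is read from it. Without the TRAJ27 clonotypes the log2 difference was 0.72 ± 0.51 (SE) and did not pass the test (edgeR adjusted p = 0.65).

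TRAJ22, the most frequent TRAJ partner, was found in 53 TRBV10 clonotypes. Its share was 13.4%, 8.96% and 12.7% in LNP-Ctrl 1 to 3 and 6.06%, 8.33% and 12.5% in LNP-P20-mAb 1 to 3, against 5.54% to 7.02% of other clonotypes. It was higher in 5 of 6 libraries, and LNP-P20-mAb 1 was level with its other clonotypes (6.24%). The log2 difference was 0.79 ± 0.23 (SE; edgeR adjusted p = 0.0201). TRBV10 was chosen partly by its alpha partners, so this test cannot decide whether TRAJ22 differs, and nothing is read from the call. This call was lost on leaving out any 1 of LNP-Ctrl 1, 2 or 3 (edgeR adjusted p = 0.11, 0.074 and 0.318), under TMM scaling (0.329) and with DESeq2 (0.629). TRAJ22 clonotypes were nearly all single cells: 53 clonotypes held 55 cells.

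TRAV3N-3 (24 clonotypes, 89 cells), TRAV12N-2 (21 clonotypes, 24 cells) and TRAV13-1 (21 clonotypes, 30 cells) followed TRAV9-2 among the TRAV partners, and TRAJ23 (29 clonotypes, 29 cells) was the third TRAJ partner. None of the 4 passed the test, which is not independent of how TRBV10 was chosen. TRAV12N-2 was higher than in other clonotypes in 6 of 6 libraries, at 4.14% ± 1.11 against 2.16% ± 0.226 (SD, n = 6), with a log2 difference of 0.98 ± 0.41 (SE; edgeR adjusted p = 0.184). TRAV names with N or D belong to near-identical copies, so counts of such single names are uncertain. Leaving aside TRAJ27, which is only described, no partner passed the test of a difference between treatments in the edgeR interaction (0% of 128 called, 10 with an unadjusted p under 0.05).

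Pairings that mark T cells with an invariant alpha chain were few with any TRBV segment. The iNKT type (TRAV11 or TRAV11D with TRAJ18) accounted for 2 of 480 TRBV10 clonotypes and 50 of 10144 others (0.417% and 0.493%), and the MAIT type (TRAV1 with TRAJ33) for 2 and 15 (0.417% and 0.148%). With 2 clonotypes of each type, no difference from the others can be read.

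**Figure D3:**
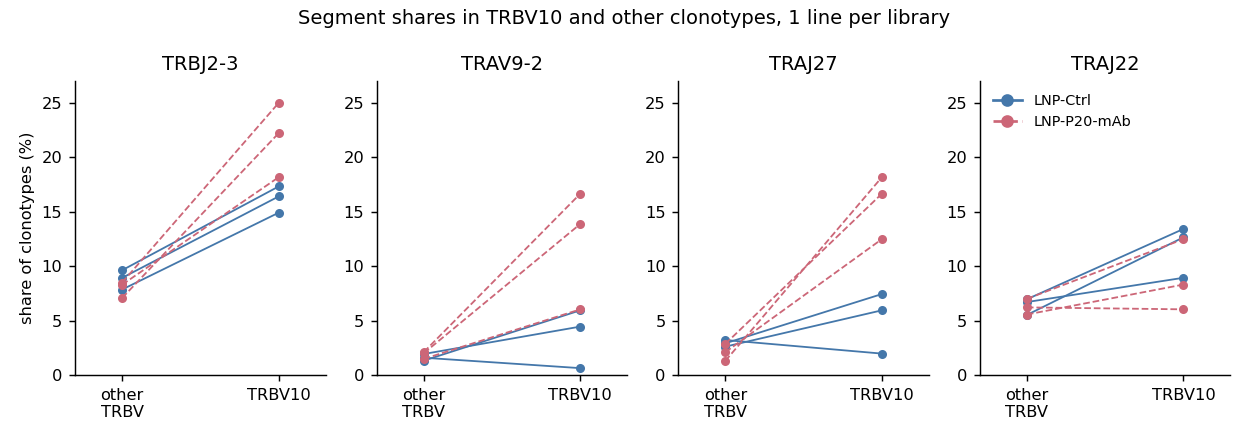
Share of clonotypes (%) with TRBJ2-3, TRAV9-2, TRAJ27 and TRAJ22 in clonotypes with other TRBV segments and with TRBV10, 1 line per library (LNP-Ctrl solid blue, LNP-P20-mAb dashed red). TRBJ2-3 is higher with TRBV10 in all 6 libraries, and TRAJ27 reaches 12.5% to 18.2% in the 3 LNP-P20-mAb libraries.

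TRAJ27 was the partner of 37 TRBV10 clonotypes with 91 cells. It was found in 5 of 67, 8 of 134 and 3 of 150 TRBV10 clonotypes of LNP-Ctrl 1 to 3 (7.46%, 5.97% and 2.00%) and in 6 of 33, 3 of 24 and 12 of 72 of LNP-P20-mAb 1 to 3 (18.2%, 12.5% and 16.7%). All 3 LNP-P20-mAb libraries lay above all 3 LNP-Ctrl libraries. With LNP-P20-mAb 1 and 2 pooled, the share was 7 of 50 clonotypes (14.0%). Among clonotypes with other TRBV segments TRAJ27 took 1.32% to 3.25%, with the lowest share in LNP-P20-mAb 1. By cells, TRAJ27 took 3.29%, 10.1% and 1.9% of TRBV10 cells in LNP-Ctrl 1 to 3 and 15.6%, 17.0% and 32.6% in LNP-P20-mAb 1 to 3.

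The TRAJ27 receptors had other segments in common. These are descriptions, since alpha partners and shared loops belong to what TRBV10 was chosen by. Of the 37, 27 used a TRAV9 family segment: 16 used TRAV9-2, 8 used TRAV9-4 and 3 used TRAV9-1. Pairing of the TRAV9 family with TRAJ27 was seen in 27 TRBV10 clonotypes, against 8 with TRBV16 and at most 6 with any other TRBV segment. A group of 20 clonotypes with 56 cells joined TRBV10 and TRBJ2-3 to TRAV9-2 or TRAV9-4 and TRAJ27 (18 distinct, since 2 were in both LNP-P20-mAb 1 and 2). All 20 had a beta loop of 15 residues and an alpha loop of 13, and 18 of the 20 beta loops ended in the same 7 residues as the glycine and serine loops. That ending was found in 52 of 480 TRBV10 clonotypes (10.8%) and in 203 of 10144 others (2.00%). The group had members in all 6 libraries, with 2, 4 and 2 clonotypes in LNP-Ctrl 1 to 3 and 2, 3 and 7 in LNP-P20-mAb 1 to 3.

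Within the group the alpha loop of TRAV9-2 and TRAJ27 printed above was the most frequent. By its residues it was carried by 9 clonotypes with 33 cells in LNP-Ctrl 2 and the 3 LNP-P20-mAb libraries, every one of them with TRBV10, and 8 of the 9 with TRBJ2-3. The remaining one, with TRBJ1-4 in LNP-P20-mAb 3, was the largest TRAJ27 clonotype, at 12 cells. Of the 9, the 2 in LNP-P20-mAb 2 were the same clonotypes as the 2 in LNP-P20-mAb 1, so not all 9 were distinct. Of the 12 TRBV10 clonotypes that joined TRAV9-2 to another TRAJ, 9 also used TRBJ2-3, and 1 of the 12 held 2 or more cells.

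TRAJ27 clonotypes often held more than 1 cell. Of the 37, 14 (37.8%) held 2 or more cells, against 41 of 443 TRBV10 clonotypes (9.26%) without TRAJ27 and 12 of 287 clonotypes (4.18%) that joined TRAJ27 to other TRBV segments. By library, 0, 3 and 0 of the TRAJ27 clonotypes in LNP-Ctrl 1 to 3 held 2 or more cells, and 3, 2 and 6 of those in LNP-P20-mAb 1 to 3. The 2 in LNP-P20-mAb 2 were the same clonotypes as 2 of the 3 in LNP-P20-mAb 1, so 35 of the 37 TRAJ27 clonotypes were distinct. Without TRAJ27, the TRBV10 counts were 7 of 62, 11 of 126 and 8 of 147 in LNP-Ctrl 1 to 3 and 4 of 27, 4 of 21 and 7 of 60 in LNP-P20-mAb 1 to 3. For TRAJ27 with other TRBV segments they were 2 of 51, 4 of 78 and 2 of 106, then 0 of 7, 1 of 8 and 3 of 37. The 37 came more from LNP-P20-mAb (21) than the 443 (108) or the 287 (52), and clonotypes of 2 or more cells were more frequent there, so the pooled shares mix libraries unequally.

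Most TRBV10 receptors were found in 1 library. Counting every TRBV10 chain, there were 541 distinct receptors by J segment and CDR3 residues (558 by bases), of which 524 were in 1 library, 14 in 2, and 1 each in 3, 4 and 5. Of the 17 found in more than 1 library, 6 were only in LNP-P20-mAb 1 and 2. With those 2 libraries as 1 sample, 11 receptors were shared (2.03%), against 1.52% of 11992 receptors with other TRBV segments. This was the fourth highest share among 20 TRBV segment names with at least 100 receptors, the combined name included. TRBJ2-3 was the J segment of 6 of these 11.

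The 3 receptors in 3 or more libraries were the glycine, serine and tyrosine loops with TRBJ2-3. The serine loop was on 10, 4 and 1 chains in LNP-Ctrl 1 to 3 and on 1, 1 and 0 in LNP-P20-mAb 1 to 3. The glycine loop was on 0, 4 and 0 chains in LNP-Ctrl 1 to 3 and on 10, 8 and 7 in LNP-P20-mAb 1 to 3. The tyrosine loop was on 4 chains, 1 each in LNP-Ctrl 2 and 3 and 2 in LNP-P20-mAb 3. The serine loop was most frequent in LNP-Ctrl 1 and the glycine loop in LNP-P20-mAb 1, and each was encoded in more than 1 way: the serine, glycine and tyrosine loops had 4, 4 and 3 different base sequences.

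The alpha partners differed for a single beta sequence. The glycine loop version found in LNP-Ctrl 2 and LNP-P20-mAb 1 and 2 was paired with the printed alpha loop of TRAV9-2 and TRAJ27 in LNP-Ctrl 2 (4 cells) and with TRAV6N-7 and TRAJ13 in LNP-P20-mAb 1 (8 cells) and 2 (4 cells). In LNP-P20-mAb 1 and 2 that alpha loop was paired instead with the second version of the glycine loop (2 and 3 cells). In LNP-P20-mAb 3 the third version was paired with TRAV9-4 and TRAJ27 (6 cells). The largest clonotype with the serine loop, 7 cells in LNP-Ctrl 1, used TRAV7N-5 and TRAJ18.

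Clone sizes of TRBV10 receptors overlapped between the treatments and varied widely among the LNP-Ctrl libraries. TRBV10 clonotypes held 2.27, 1.40 and 1.05 cells on average in LNP-Ctrl 1 to 3 and 2.73, 1.96 and 1.79 in LNP-P20-mAb 1 to 3. The share of TRBV10 cells in clonotypes of 2 or more cells was 60.5%, 36.2% and 10.1% in LNP-Ctrl 1 to 3 and 71.1%, 61.7% and 54.3% in LNP-P20-mAb 1 to 3. LNP-Ctrl 1 lay within the LNP-P20-mAb range, so the groups overlapped. The means were 35.6% ± 25.2 and 62.4% ± 8.44 (SD, n = 3 each). The largest TRBV10 clonotype held 71, 24 and 2 cells in LNP-Ctrl 1 to 3 and 28, 14 and 12 in LNP-P20-mAb 1 to 3, and these ranges overlapped too.

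The 7 clonotypes of 10 or more usable cells, whose beta loops are printed above, had different partners. In LNP-Ctrl 1, the one with TRBJ2-4, TRAV7-3 and TRAJ24 held 71 of the 152 TRBV10 cells (46.7%). In LNP-P20-mAb 1 and 2, the one with TRBJ2-4, TRAV6-7-DV9 and TRAJ50 held 15 and 14 cells. The last 8 residues of its beta loop were those of the LNP-Ctrl 1 clonotype, with a different alpha chain, and this ending was found in 3 of 480 TRBV10 clonotypes and 4 of 10144 others. LNP-P20-mAb 1 also had one with TRBJ2-4, TRAV3N-3 and TRAJ11, at 28 cells. LNP-P20-mAb 3 had one with TRBJ1-4, TRAV9-2 and TRAJ27 at 12 cells and one with TRBJ2-3, TRAV4N-3 and TRAJ39 at 10. LNP-Ctrl 2 had one with TRBJ2-1, TRAV3N-3 and TRAJ26, at 24 cells.

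The share of clonotypes that held 2 or more cells was compared between TRBV10 and the other clonotypes of the same library. For TRBV10 it was 10.4%, 10.4% and 5.33% in LNP-Ctrl 1 to 3 and 21.2%, 25.0% and 18.1% in LNP-P20-mAb 1 to 3. For other clonotypes it was 8.42%, 5.98% and 3.49% in LNP-Ctrl 1 to 3, and in LNP-P20-mAb 1 to 3 it was 18.7%, 23.4% and 12.6%. TRBV10 was higher in 6 of 6 libraries, by 2.99 ± 1.61 percentage points (SD, n = 6). With barcodes of 2 TRB chains kept it was higher in 5 of 6, LNP-P20-mAb 2 being lower, and the difference was 1.34 ± 3.14 points. By cells the order was mixed: TRBV10 was lower than other receptors in LNP-Ctrl 3 and all 3 LNP-P20-mAb libraries and higher in LNP-Ctrl 1 and 2.

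**Figure D4:**
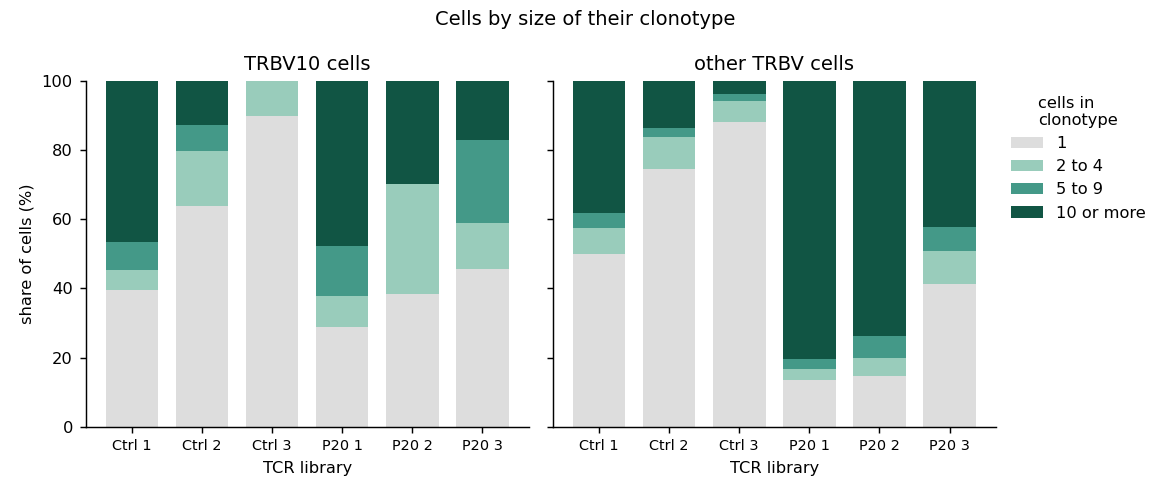
Share of cells (%) by the number of cells in their clonotype, for TRBV10 cells and for cells with other TRBV segments, in the 3 LNP-Ctrl (Ctrl) and 3 LNP-P20-mAb (P20) libraries. Clonotypes of 10 or more hold 46.7%, 12.8% and 0% of TRBV10 cells in the LNP-Ctrl libraries and 47.8%, 29.8% and 17.1% in the LNP-P20-mAb libraries.

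The joints of TRBV10 chains differed from those of other chains in several measures at the smallest p the test can give, none of which passed after adjustment over the 11 measures. At that smallest p a measure can pass only if most of the 11 reach it too, so nothing is read from the failure. The stretch between the usual V and J ends was 11.4 ± 0.554 bases in TRBV10 clonotypes and 9.79 ± 0.141 in others (SD, n = 6 libraries; higher in 6 of 6; exact sign-flip permutation test, two-sided over 64 flips, p = 0.03125, the smallest it can give, 0.0859 adjusted). The flips count LNP-P20-mAb 1 and 2, which share clonotypes, as separate libraries. With them pooled, no p this small is possible. The V end found among TRBV10 chains was 13 bases long, against 13 to 20 bases over all TRBV segments (median 16), so that the length of the stretch also depends on how the ends were set. A TRBJ2 cluster segment was used by 77.2% ± 4.37 of TRBV10 clonotypes and 68.7% ± 2.83 of others (higher in 6 of 6). This includes TRBJ2-3, which alone stood at 19.0% against 8.40%, so it is no separate result. TRBJ2-7 (19.4% against 20.7%) and TRBJ2-2 (2.88% against 5.52%) had lower means with TRBV10, while TRBJ2-4 (11.2% against 8.83%) had a higher one. The net charge of the middle of the loop was -0.305 ± 0.116 against -0.475 ± 0.041 (higher in 6 of 6). A D segment was left unnamed in 67.3% ± 6.72 of TRBV10 clonotypes and 77.2% ± 1.51 of others (lower in 5 of 6; p = 0.0625, exact, 0.138 adjusted). That difference was 0.182, -4.63 and -4.95 points in LNP-Ctrl 1 to 3 and -19.2, -14.9 and -15.7 in LNP-P20-mAb 1 to 3. For the stretch it was 1.16, 1.22 and 1.33 bases, then 1.59, 2.56 and 1.56. With barcodes of 2 TRB chains kept, the stretch difference of LNP-P20-mAb 1 (1.09) lay below every LNP-Ctrl library. These splits were picked out after the values were seen, so no test of them is printed.

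Mean loop length did not separate TRBV10 from other chains over the 6 libraries. The sign of the difference followed the treatment in the main setting. With barcodes of 2 TRB chains kept it did not, as LNP-Ctrl 1 turned positive (0.033 residues). In the main setting the values were as follows. Mean length in TRBV10 clonotypes was 14.0, 13.8 and 13.6 residues in LNP-Ctrl 1 to 3. It was 14.3, 14.3 and 14.1 in LNP-P20-mAb 1 to 3, while other clonotypes had 13.9 to 14.1 throughout. The most frequent length was 15 residues in TRBV10 clonotypes (28.7%) and 14 in others (31.4%). Of the 138 TRBV10 clonotypes with 15 residues, 56 used TRBJ2-3 and 31 used TRAJ27. At position 5 of the loop, where the V end stops, the most frequent residues were serine (19.2% against 4.07% of others) and tyrosine (14.2% against 0.562%), both of which can be read from a codon that starts with the last T of the V end.

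**Figure D5:**
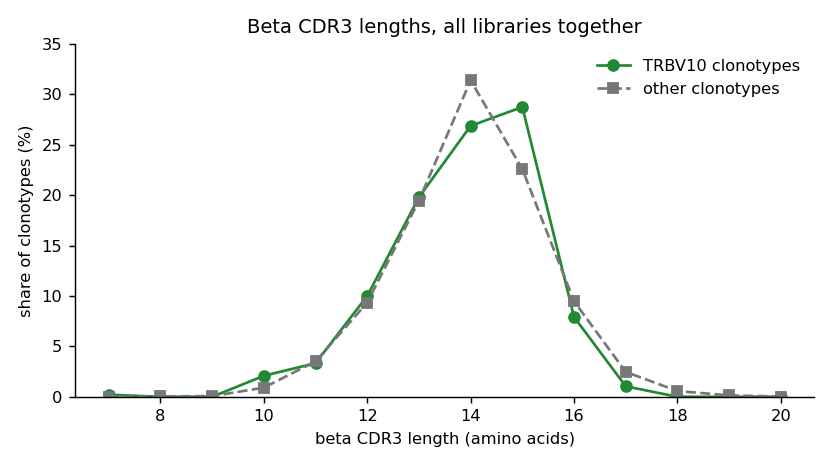
Share of clonotypes (%) by beta CDR3 length in amino acids, for TRBV10 (green circles) and other TRBV segments (grey squares), all libraries together. TRBV10 peaks at 15 residues (28.7%) and the others at 14 (31.4%).

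A second set of alike receptors, chosen after its values were seen, was found in LNP-Ctrl libraries. It comprised 5 clonotypes with 40 cells that joined TRBV10 and TRBJ2-1, with the last 9 residues of the printed TRBJ2-1 loop, to TRAV3N-3 and TRAJ26. LNP-Ctrl 1 to 3 had 2, 2 and 1 of them, with 6, 32 and 2 cells. LNP-P20-mAb 1 to 3 had 0 of 33, 0 of 24 and 0 of 72, which allows shares of up to 9.09%, 12.5% and 4.17%, so shares like those in LNP-Ctrl could not be detected there. This ending of 9 residues was found in 5 of 480 TRBV10 clonotypes and 5 of 10144 others.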

How the data were processed

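The 6 deposited files list assembled TCR chains with raw UMI and read counts for each, made by the authors. Per the submitters' processing notes the authors used Cell Ranger 8.0.1; the notes name several mouse builds with no role, so no coordinates are given. Members and lists were chosen with earlier results of these data known. Usable cells had 1 TRB and 1 or 2 TRA chains. Segments with at least 30 clonotypes were tested on numbers of distinct clonotypes with edgeR 4.0.16 in R 4.3.3 (quasi-likelihood, library size the number of clonotypes, Benjamini-Hochberg, threshold 0.05). Partners were fitted with library as a block. The SE was taken as log2 change over √F. Single values had exact permutation tests. The planned tests of clone sizes are not printed and nothing is drawn from them, because TRBV10 was chosen partly by clone sizes; they remain among the 6 and 11 measures over which the other p-values were adjusted. Scripts were tested on simulated data. Alternatives were DESeq2 1.42.0, TMM, other filters, pooled or left-out libraries. V and J ends were extended base by base while at least 50% of chains followed. Intervals are exact binomial (Clopper-Pearson, 95%); they and floors of 3 counts cover counting error only. Named segments were the 3 most frequent partners per locus (with ties), every called segment and TRAJ27; named receptors were those in 3 or more libraries and clonotypes of 10 or more cells; others were chosen after their values were seen.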

Additional observations from a re-analysis of the deposited data

Results flagged for a closer look

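The difference in mean beta CDR3 length between TRBV10 and other clonotypes had opposite signs in the treatments: -0.0448, -0.195 and -0.321 residues in LNP-Ctrl 1 to 3 and 0.36, 0.3 and 0.0812 in LNP-P20-mAb 1 to 3. With barcodes of 2 TRB chains kept, LNP-Ctrl 1 was at 0.033 residues, so the signs no longer split by treatment. In the main setting the means differed by 0.434 residues, and the exact permutation test gave p = 0.1, the smallest that 20 assignments can give. A result was flagged only if its signs split by treatment, and any such split gives this p. The p was therefore fixed in advance and nothing is read from it. TRAJ27 clonotypes, whose beta loops averaged 14.5 residues against 13.8 in the other TRBV10 clonotypes, were also more frequent in LNP-P20-mAb, and their part in this result was not tested.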

How the results depend on the processing

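Over the alternatives run, 304 of 333 recomputed values kept their direction and their side of the threshold or, for counts of called partners, changed little. For many the side was fixed in advance. The permutation tests between treatments cannot give p under 0.1, and sign flips with 1 library left out cannot pass 0.05. The total is therefore no measure of robustness. The edgeR change of TRBV10 usage between treatments turned to -0.49 when cells were counted in place of clonotypes (adjusted p = 0.434); with the replicate block it was 0.44 (adjusted p = 0.15), and without 1 library each it lay between 0.36 and 0.50. All segments together, 7 were called by edgeR, 2 by DESeq2 and 0 on cells. Same-numbered libraries deviated from their group means with correlations of -0.0607, -0.156 and -0.0865 over 151 segments, so the numbers were not taken as pairs, and the block changed no call. Among partners, DESeq2 called 0 segments higher (14 with an unadjusted p under 0.05; 3 by edgeR) and gave adjusted p = 0.168 for TRBJ2-3; leaving out chains with 1 UMI gave 2 lower segments in place of 1. The cause was not tested. Uncalled partners changed sign as follows. TRAJ23 was -0.13 and TRBJ2-7 -0.34 with DESeq2; TRBJ2-7 was -0.27 with TMM; TRBJ2-1 was -0.32 with DESeq2, -0.28 with TMM and -0.0040 with 2 TRB chains kept. Without 1 library each, TRAV13-1 ranged from -0.086 to 0.73, TRBJ2-1 from -0.096 to 0.13 and TRBJ2-7 from -0.0063 to 0.14. With 2 TRB chains kept, the difference in clonotypes of 2 or more cells was 1.34 points (2.99 without them) and that of 3 or more -0.161. The difference in CDR3 length was -0.0334 residues with LNP-P20-mAb 1 and 2 pooled and ranged from -0.036 to 0.1002 without 1 library each; that in cells with 2 TRA chains ranged from -1.01 points without LNP-Ctrl 1 (55.3% in TRBV10 cells) to 10.8 without LNP-P20-mAb 3 (11.6%), and that in the largest clonotype from -29.5 to 5 cells. Thinned to 2016 cells per library, added after seeing the data, 52.4% to 69.2% of TRBV10 cells in LNP-P20-mAb lay in clonotypes of 2 or more and 5.61% to 58.9% in LNP-Ctrl. LNP-P20-mAb 1 and 2 held 33 and 24 TRBV10 clonotypes, which limits their shares.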
